A study of Mus musculus with 8 samples.

Results

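Inflammatory cytokine genes and the genes of the NF-κB pathway were examined in lung macrophages that lack or keep the TGF-β receptor gene Tgfbr2. The set was fixed by name, with chemokines left out, and holds 37 of the 22597 genes in the deposited table. It comprises 9 cytokines and cytokine antagonists, 5 NF-κB subunits, 5 genes of the IκB family, 5 other negative regulators, 2 inflammasome genes, 5 genes of survival and TRAF signalling and 6 effector and surface genes. All 37 passed the filter on low counts, which left 12750 genes to test.

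The recipients were female CD45.1/CD45.2 IMDTR mice, called Cx3cr1-DTR elsewhere in the labels, of the C57BL/6 strain, in which diphtheria toxin (DT) deletes interstitial macrophages, the macrophages of the lung tissue outside the air spaces. All recipients were irradiated with the thorax shielded and received bone marrow that was Tgfbr2 fl/fl (WT, 4 libraries) or Lyz2Cre Tgfbr2 fl/fl (Tgfbr2_KO, 4 libraries). After 1 month each was given 50 ng DT, and macrophages that had refilled the niche were sorted from the lung 10 days later for polyadenylated RNA sequencing. The age is 18 weeks in the protocol and 12 to 16 weeks in the sample labels. Lyz2 drives Cre in myeloid cells in general, and only the Tgfbr2_KO donors carried it, so Cre itself and loss of the receptor cannot be told apart. Pooling of animals is not stated, so a p-value covers the spread among these libraries alone, and that spread may be technical. Libraries are called WT 1 to 4 and KO 1 to 4.

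As background, NF-κB is a family of dimeric transcription factors held in the cytoplasm by IκB proteins. Toll-like receptors, the IL-1 receptor and the TNF receptor activate the kinase that marks IκB for degradation, and the freed dimers switch on cytokine genes. They also switch on genes that end the response, among them Nfkbia and Tnfaip3, so that inducers and brakes share a control. TGF-β is known as a restraint on macrophage activation.

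The promoters of some members are shown first, because the members are described by their place in the NF-κB pathway. A window from 250 bases before to 50 bases after the annotated start was given by RefSeq (GRCm38.p6) for 30 of the 37 genes, all but Cd69, Nos2, Relb, Nfkbiz, Il23a, Osm and Nfkb1. The NF-κB consensus of 10 letters was searched on both strands, and overlapping matches were merged. It was present in at least 1 window of 10 of the 30 genes (33.3%), against 9.55% of all 27025 genes with a window. By role, 3 of 4 IκB family genes held it (Nfkbia, Nfkbid and Nfkbie), 2 of 3 NF-κB subunits (Rel and Nfkb2), 2 of 5 other negative regulators (Tnfaip3 and Tnip1), 1 of 2 inflammasome genes (Nlrp3), 1 of 4 effector genes (Tnfaip2), 1 of 7 cytokines (Il6) and 0 of 5 survival genes. A match describes letters and is not evidence of binding. Below are the windows of Nfkbia (chr12:55492598-55492897, minus strand), Nfkbid (chr7:30422156-30422455, plus strand), Nfkbie (chr17:45555450-45555749, plus strand), Rel (chr11:23770920-23771219, minus strand), Nfkb2 (chr19:46304487-46304786, plus strand), Tnip1 (chr11:54962891-54963190, minus strand) and Il6 (chr5:30012864-30013163, plus strand), written 5′ to 3′ along the gene with the matches in capitals. They were chosen because Nfkbia, Nfkbid, Rel, Nfkb2 and Il6 were higher in Tgfbr2_KO in the libraries compared below while Nfkbie and Tnip1, with the same consensus, were lower.
Nfkbia: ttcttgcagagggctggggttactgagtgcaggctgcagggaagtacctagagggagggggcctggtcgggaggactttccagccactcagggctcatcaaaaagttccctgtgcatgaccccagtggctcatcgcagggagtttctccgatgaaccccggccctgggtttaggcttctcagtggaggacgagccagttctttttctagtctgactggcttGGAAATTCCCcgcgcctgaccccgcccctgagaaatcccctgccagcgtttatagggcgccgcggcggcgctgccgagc
Nfkbid: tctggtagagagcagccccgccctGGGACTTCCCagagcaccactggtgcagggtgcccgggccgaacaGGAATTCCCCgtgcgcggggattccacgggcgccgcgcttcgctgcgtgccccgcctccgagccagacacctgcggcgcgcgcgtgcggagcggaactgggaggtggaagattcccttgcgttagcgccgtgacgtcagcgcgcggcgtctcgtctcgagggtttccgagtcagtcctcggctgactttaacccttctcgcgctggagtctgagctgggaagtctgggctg
Nfkbie: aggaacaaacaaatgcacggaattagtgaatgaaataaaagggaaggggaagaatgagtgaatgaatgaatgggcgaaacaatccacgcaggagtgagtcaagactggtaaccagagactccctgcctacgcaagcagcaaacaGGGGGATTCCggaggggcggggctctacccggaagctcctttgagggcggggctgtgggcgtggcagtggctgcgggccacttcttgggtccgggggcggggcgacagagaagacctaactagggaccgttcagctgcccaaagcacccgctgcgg
Rel: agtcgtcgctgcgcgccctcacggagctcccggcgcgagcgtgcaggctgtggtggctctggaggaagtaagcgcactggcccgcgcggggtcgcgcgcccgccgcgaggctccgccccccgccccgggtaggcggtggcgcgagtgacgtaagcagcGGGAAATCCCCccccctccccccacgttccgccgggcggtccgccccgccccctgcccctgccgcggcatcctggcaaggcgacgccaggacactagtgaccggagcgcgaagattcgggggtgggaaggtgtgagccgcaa
Nfkb2: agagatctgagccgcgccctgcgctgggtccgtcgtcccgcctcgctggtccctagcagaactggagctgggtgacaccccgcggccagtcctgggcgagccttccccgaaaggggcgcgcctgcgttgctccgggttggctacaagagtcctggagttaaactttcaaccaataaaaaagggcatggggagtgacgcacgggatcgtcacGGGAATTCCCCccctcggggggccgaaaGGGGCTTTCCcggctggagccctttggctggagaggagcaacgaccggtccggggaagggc
Tnip1: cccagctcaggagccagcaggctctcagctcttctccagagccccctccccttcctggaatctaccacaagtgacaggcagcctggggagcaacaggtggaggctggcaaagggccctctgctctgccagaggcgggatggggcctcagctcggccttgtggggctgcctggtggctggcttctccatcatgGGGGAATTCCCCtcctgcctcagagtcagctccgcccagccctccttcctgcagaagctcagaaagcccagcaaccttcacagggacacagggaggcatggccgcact
Il6: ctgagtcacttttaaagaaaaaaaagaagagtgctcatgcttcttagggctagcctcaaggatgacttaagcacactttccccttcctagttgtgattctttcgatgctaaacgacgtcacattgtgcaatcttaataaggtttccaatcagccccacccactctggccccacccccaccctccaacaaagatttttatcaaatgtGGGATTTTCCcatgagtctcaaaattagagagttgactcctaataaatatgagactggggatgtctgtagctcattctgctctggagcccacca
The match in Nfkbia, the gene of IκBα, began 29 bases before the start. Those in Nfkb2 began 39 and 38 bases before it, overlapping, and 11 bases before it, and that in Il6 began 44 bases before it.

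The 8 libraries fell into 2 sets, defined from the data, that are not groups of the study. WT 1, WT 2 and KO 1 held high levels of lung structural transcripts and are called lung-rich. The 12 epithelial markers summed to 3304 to 5927 CPM, counts scaled to library size with TMM factors, in them and to 171 to 265 CPM in the other 5, and the 12 endothelial markers to 2882 to 5592 against 310.2 to 378 CPM. The 15 interstitial macrophage markers, among them C1qa, Mertk, Cd68 and Cd74, were all detected and summed to 33105, 36366 and 23536 CPM in WT 1, WT 2 and KO 1. The range was 51006 to 55042 CPM in the other 5. KO 1 thus held 67.8% of the macrophage marker level of WT 1 and WT 2. In KO 2 to 4 the level was 95.5% of that in WT 3 and WT 4. Cd74 and Apoe were the most abundant of these markers, and both were lowest in KO 1. Cd74 was at 28003.5 and 28905 CPM in WT 3 and WT 4 and at 26622 to 28896 CPM in KO 2 to 4. Apoe was at 9183 and 9476 CPM in WT 3 and WT 4 and at 5232 to 6137 CPM in KO 2 to 4. In bulk RNA, fewer macrophages and less RNA per macrophage cannot be told apart. Library totals were between 15597300 and 37654100 counts, and 3 counts, the floor used here, were 0.0844 to 0.177 CPM. Tgfbr2, the targeted gene, was at 548, 474, 546 and 542 CPM (WT 1 to 4) and 424, 576, 529 and 539 CPM (KO 1 to 4), and the genotypes overlapped (log2 difference -0.029, SE 0.12 and edgeR adjusted p = 1.00). That is a total over the whole gene, which does not check the part that Cre removes. Lyz2, the locus that carries Cre in Tgfbr2_KO, was at 7285, 8262, 12935 and 13193 CPM (WT 1 to 4) and 3439.9, 5611, 5448 and 5538 CPM (KO 1 to 4), lower in each KO library than in every WT library. Its log2 difference was -1.06 (SE 0.27 and edgeR adjusted p = 0.191) over all 8 and -1.22 (SE 0.072 and edgeR adjusted p = 1.47e-04) with the library set as a term. WT 3 and WT 4 lay closest together of the pairs within a genotype (median chi-square 1.87 times counting noise, against 2.06 to 3.07 among KO 2 to 4), and were kept as separate libraries.

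Over all 8 libraries none of the 37 genes passed. The counts were 0 higher and 0 lower (edgeR quasi-likelihood test), against 0.196% of all genes tested higher and 0.102% lower. At an unadjusted p under 0.05 there were 7, against 10.4% of all genes tested. DESeq2 called 1 higher (Rela) and 1 lower (Il23a), against 2.72% and 1.41% of all genes, so these counts are near the share of all genes. The median log2 fold change of the 37 was 0.061, against -0.0083 for all genes tested. In the 5 other libraries, KO 2 to 4 against WT 3 and WT 4, 15 of the 37 were higher and 13 lower, against 19.7% and 18.7% of all genes tested. The median level of the members was 158 CPM, against 23.1 CPM for all genes tested, and the part of level in these shares was not tested. With the library set as a term over all 8 libraries, 2 were higher (Rela and Icam1) and 9 lower (Il23a, Osm, Nfkbie, Tnip1, Bcl2a1a, Bcl2a1b, Bcl2a1d, Tnfaip2 and Cd69), against 8.59% and 7.89% of all genes. All 11 were among the 28 called in the 5 libraries, which are part of the same 8, so the 2 sets of calls are not independent.

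**Figure D1:**
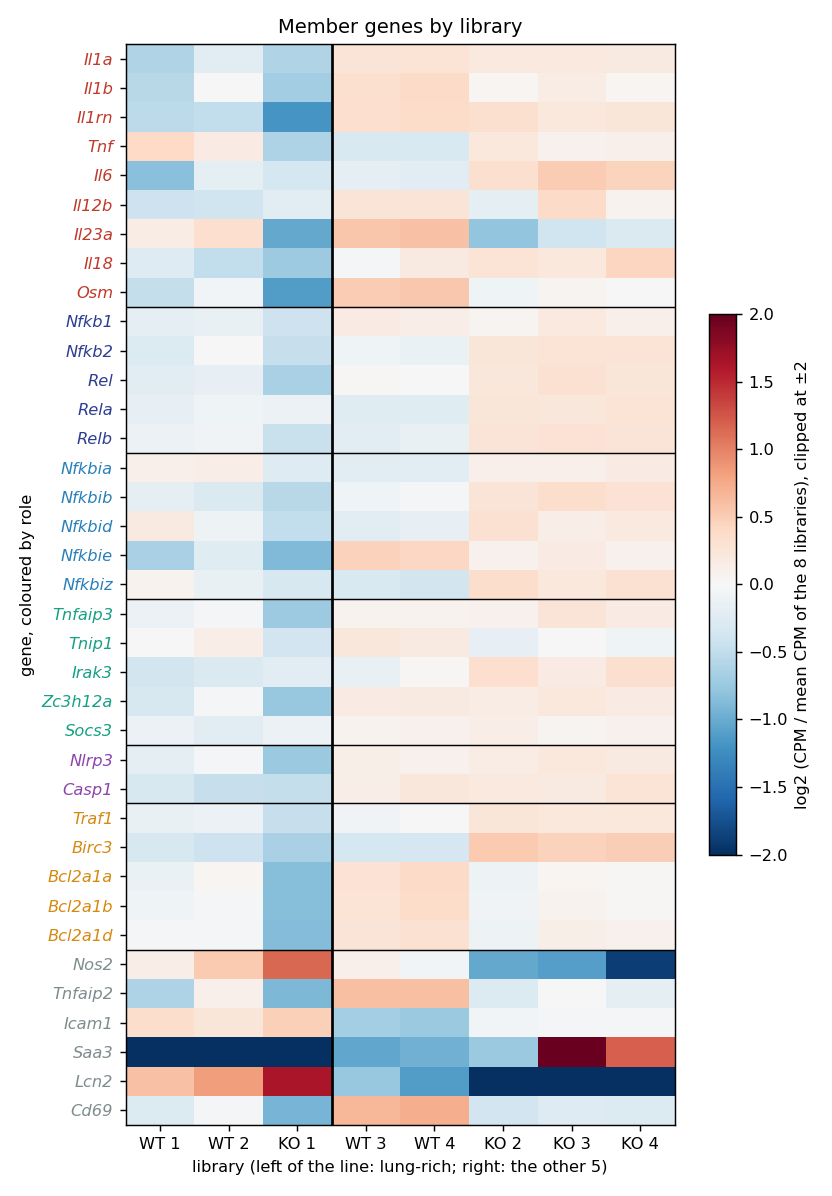
Level of each of the 37 genes in each library, as log2 of CPM over the gene's mean CPM in the 8 libraries (colour, clipped at ±2), with genes in rows grouped by role and libraries in columns. KO 1 is the lowest of the KO columns for 34 of the 37 genes.

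KO 1, the only Tgfbr2_KO library of the lung-rich set, differed from the other KO libraries, and a difference of the set cannot be told apart from a difference of this 1 library. A test of the difference between the sets, an interaction term fitted to all 8 libraries and so not exactly the gap between separately fitted values, passed for 21 of the 37 genes, 19 with a lower and 2 with a higher effect in the lung-rich set, against 10.1% and 8.84% of all genes tested. Its p-values take the spread of the lone library from the other groups. KO 1 was below KO 2 to 4 for 34 of the 37 genes, against 42.4% of all genes tested. It was below both WT 1 and WT 2 for 27, against 32.8% of all genes. The median log2 fold change of the 37 was -0.42 in the lung-rich libraries, against -2.05e-04 for all genes tested. In the other 5 it was 0.036, against -0.0019 for all genes tested. When each gene was divided by the summed macrophage markers of its library, KO 1 was below WT 1 and WT 2 for 10 genes and above both for 22. On the same scale, KO 2 to 4 were all above WT 3 and WT 4 for 20 genes and all below for 12, against 18 and 14 on the CPM scale. The shares of all genes tested were not computed for these counts. Dividing by the marker sum, which was lower in KO 1, raises every gene of KO 1 against WT 1 and WT 2.

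**Figure D2:**
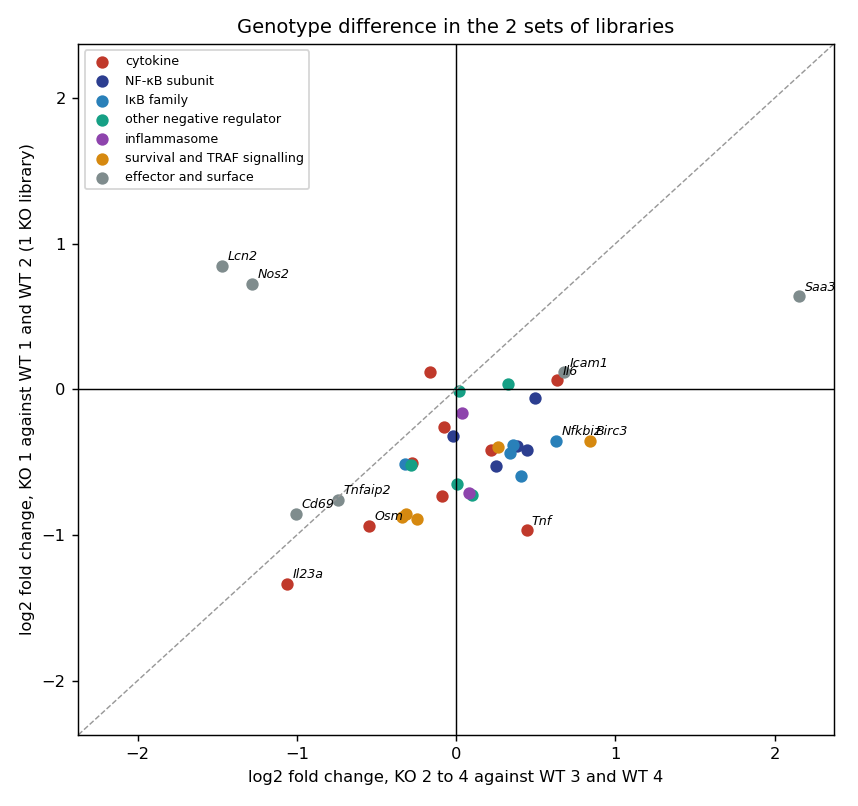
Log2 fold change of each gene in the 5 other libraries (horizontal) against that in the lung-rich libraries (vertical), 1 point per gene coloured by role, with the line of equality dashed. 17 genes lie at lower right, higher in Tgfbr2_KO in the 5 libraries and lower in KO 1, and 13 lie at lower left, below 0 in both sets.

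Among the cytokines, Tnf and Il6 were higher in the Tgfbr2_KO libraries of the 5-library comparison, and Il1b, Il1rn, Osm and Il23a were lower. Il1a, Il12b and Il18 did not pass. The median log2 fold change of the 9 was -0.09 in the 5 libraries, -0.51 in the lung-rich ones and 0.027 over all 8.

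Tnf, the gene of tumour necrosis factor, was at 209, 177, 128 and 128 CPM (WT 1 to 4) and 103, 183, 167 and 169 CPM (KO 1 to 4). It was higher in each of KO 2 to 4 than in WT 3 and WT 4, and lowest of all in KO 1. Its log2 fold change was 0.44 (SE 0.042 and edgeR adjusted p = 5.72e-08) in the 5 libraries and -0.97 in the lung-rich ones, a difference of -1.34 (SE 0.12 and edgeR adjusted p = 6.85e-05). Over all 8 libraries the genotypes overlapped (log2 difference -0.041, SE 0.23 and edgeR adjusted p = 1.00). Il6, a cytokine that drives the acute phase, was at 19.99, 31.2, 31.5 and 30.6 CPM (WT 1 to 4) and 28.1, 44.6, 51.1 and 48.9 CPM (KO 1 to 4). Its 3 highest libraries were KO 2 to 4, and KO 1 lay within the WT range. On the log2 scale the difference was 0.64 (SE 0.066 and edgeR adjusted p = 2.16e-07) in the 5 libraries and 0.061 in the lung-rich ones.

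Il1b, the gene of IL-1β, was the most abundant of the 37 per length, at 735 CPM per kilobase of merged exon on average. It was at 951, 1390.3, 1752 and 1827 CPM (WT 1 to 4) and 863, 1435, 1545 and 1446 CPM (KO 1 to 4). KO 2 to 4 were below WT 3 and WT 4 without overlap, and the log2 fold change there was -0.28 (SE 0.033 and edgeR adjusted p = 3.5e-06). Over all 8 libraries it did not pass (log2 difference -0.16, SE 0.26 and edgeR adjusted p = 1.00), nor with the set term (edgeR adjusted p = 0.0874). Il1rn encodes the antagonist that blocks the IL-1 receptor, and it was at 527, 539, 954 and 981 CPM (WT 1 to 4) and 336, 947, 881 and 895 CPM (KO 1 to 4). The log2 fold change was smaller, -0.09 (SE 0.032 and edgeR adjusted p = 0.0296), and in the lung-rich libraries it was -0.73. The call in the 5 libraries was kept without KO 2 and lost without KO 3, KO 4, WT 3 or WT 4 and with WT 3 and WT 4 summed. Il1a, the gene of IL-1α, had -0.075 (SE 0.035 and edgeR adjusted p = 0.103) in the 5 libraries.

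Osm, which encodes oncostatin M of the IL-6 family, was at 106, 142, 211 and 216 CPM (WT 1 to 4) and 68.0, 139.5, 153 and 147 CPM (KO 1 to 4). It was lower in each KO library than in every WT library of its own set. As a log2 fold change it was -0.66 (SE 0.10 and edgeR adjusted p = 0.0056) with the set term, -0.54 (SE 0.04 and edgeR adjusted p = 1.49e-09) in the 5 libraries and -0.94 in the lung-rich ones. Il23a, the p19 chain of IL-23, was scarce, at 1.12, 1.27, 1.49 and 1.52 CPM (WT 1 to 4) and 0.496, 0.583, 0.765 and 0.825 CPM (KO 1 to 4), and its genotypes did not overlap over the 8 libraries. Its log2 fold change was -1.02 (SE 0.26 and edgeR adjusted p = 0.179) over all 8 libraries, -1.13 (SE 0.22 and edgeR adjusted p = 0.0127) with the set term and -1.06 (SE 0.35 and edgeR adjusted p = 0.0215) in the 5. That last call was lost without KO 2, WT 3 or WT 4 and with WT 3 and WT 4 summed. Without overlap 2 of the 37 genes were lower (Il23a and Tnip1) and 0 higher, against 2.71% and 4.19% of all genes tested. Il12b, the chain that IL-23 shares with IL-12, lay between 3.96 and 6.83 CPM with a log2 fold change of -0.16 (SE 0.16 and edgeR adjusted p = 0.461) in the 5 libraries. Il18, a cytokine that caspase-1 activates, lay between 7.54 and 16.8 CPM (log2 difference 0.22, SE 0.10 and edgeR adjusted p = 0.101 in the 5 libraries).

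**Figure D3:**
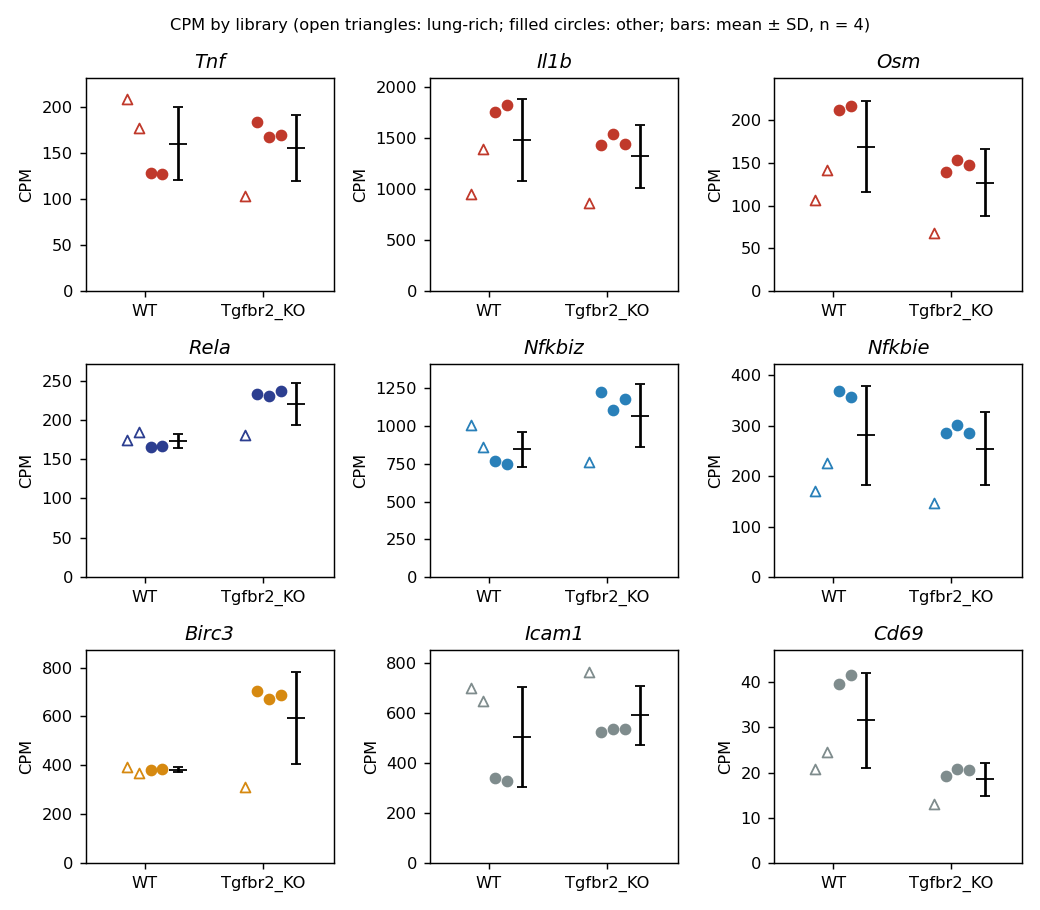
CPM of 9 genes in each library, WT on the left and Tgfbr2_KO on the right of each panel, with open triangles for lung-rich and filled circles for the other libraries, and bars for mean ± SD (n = 4). In the filled circles Tnf, Rela, Nfkbiz, Birc3 and Icam1 are higher in Tgfbr2_KO, and Il1b, Osm, Nfkbie and Cd69 are lower.

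Of the NF-κB subunits, Rela, Relb, Nfkb2 and Rel were higher in Tgfbr2_KO in the 5 libraries, and Nfkb1 did not pass. Rela encodes p65, the chief activating subunit, and was at 175, 185, 166 and 166 CPM (WT 1 to 4) and 181, 233, 230.0 and 237 CPM (KO 1 to 4). KO 2 to 4 lay above all WT libraries, and KO 1 lay within the WT range. The log2 fold change was 0.49 (SE 0.034 and edgeR adjusted p = 7.23e-10) in the 5 libraries, 0.32 (SE 0.092 and edgeR adjusted p = 0.0488) with the set term and 0.35 (SE 0.10 and edgeR adjusted p = 0.247) over all 8. DESeq2 called it at adjusted p = 0.049. Relb, the partner of p52 in the non-canonical branch, was at 110.2, 115, 104 and 109 CPM (WT 1 to 4) and 88.2, 144, 147 and 143 CPM (KO 1 to 4). Its 4 WT libraries lay within 103.7 to 115 CPM. Its log2 fold change was 0.45 (SE 0.039 and edgeR adjusted p = 2.18e-08) in the 5 libraries and -0.42 in the lung-rich ones, a difference of -0.80 (SE 0.075 and edgeR adjusted p = 6.85e-05).

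Nfkb2, which encodes p100 and its product p52, was at 236, 285, 268 and 260.2 CPM (WT 1 to 4) and 208, 339, 346 and 345 CPM (KO 1 to 4). On the log2 scale the difference was 0.38 (SE 0.032 and edgeR adjusted p = 1.11e-08) in the 5 libraries. Rel, the gene of c-Rel, was at 845, 886, 1005 and 989 CPM (WT 1 to 4) and 629, 1159, 1222 and 1172 CPM (KO 1 to 4). For both genes KO 2 to 4 were the 3 highest libraries and KO 1 the lowest. The log2 fold change of Rel was 0.25 (SE 0.03 and edgeR adjusted p = 1.21e-06) in the 5 libraries. Nfkb1, which encodes p105 and p50, was at 248, 253, 313 and 307 CPM (WT 1 to 4) and 209.9, 293, 323 and 301 CPM (KO 1 to 4), with -0.019 (SE 0.038 and edgeR adjusted p = 0.736) in the 5 libraries. Over the 5 subunits the median log2 fold change was 0.38 in the 5 libraries and -0.39 in the lung-rich ones. The test of the difference between the sets passed for 4 of the 5, all but Nfkb1.

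In the IκB family, Nfkbia, Nfkbib, Nfkbid and Nfkbiz were higher in Tgfbr2_KO in the 5 libraries and Nfkbie was lower. The median log2 fold change of the 5 genes was 0.35 there, against -0.44 in the lung-rich libraries. Nfkbia, whose product IκBα retains NF-κB in the cytoplasm, was at 709, 718, 565 and 569.6 CPM (WT 1 to 4) and 550.1, 707, 705 and 736 CPM (KO 1 to 4). WT 1 and WT 2 were as high as KO 2 to 4, so that over all 8 libraries the genotypes overlapped (log2 difference 0.075, SE 0.14 and edgeR adjusted p = 1.00). The log2 fold change in the 5 libraries was 0.34 (SE 0.03 and edgeR adjusted p = 2.47e-08). Nfkbiz encodes IκBζ, a nuclear cofactor that NF-κB needs for a subset of targets such as Il6. It was at 1008, 859, 771 and 746 CPM (WT 1 to 4) and 764, 1228, 1104 and 1177 CPM (KO 1 to 4). Its log2 fold change in the 5 libraries was 0.63 (SE 0.039 and edgeR adjusted p = 1.73e-08), the largest of the 5 listed genes.

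Nfkbib, the gene of IκBβ, was at 93.0, 86.8, 99.8 and 104 CPM (WT 1 to 4) and 72.0, 127, 135 and 129.9 CPM (KO 1 to 4), with KO 2 to 4 above every WT library and KO 1 below them. Its log2 fold change was 0.35 (SE 0.042 and edgeR adjusted p = 1.15e-06) in the 5 libraries. Nfkbid, which encodes the nuclear protein IκBNS, was at 289.9, 238, 219.6 and 230.1 CPM (WT 1 to 4) and 183, 316, 282 and 294 CPM (KO 1 to 4) (log2 difference 0.41, SE 0.043 and edgeR adjusted p = 2.36e-06 in the 5 libraries). For Nfkbid the lung-rich fold change was -0.59, a difference of -0.93 (SE 0.14 and edgeR adjusted p = 0.00262). Nfkbie, the gene of IκBε, differed from its relatives. It was at 171, 226, 369 and 358 CPM (WT 1 to 4) and 146, 285, 301 and 285 CPM (KO 1 to 4), lower in each KO library than in every WT library of its own set. As a log2 fold change it was -0.32 (SE 0.034 and edgeR adjusted p = 2.55e-07) in the 5 libraries, -0.37 (SE 0.087 and edgeR adjusted p = 0.0246) with the set term and -0.14 (SE 0.32 and edgeR adjusted p = 1.00) over all 8.

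**Figure D4:**
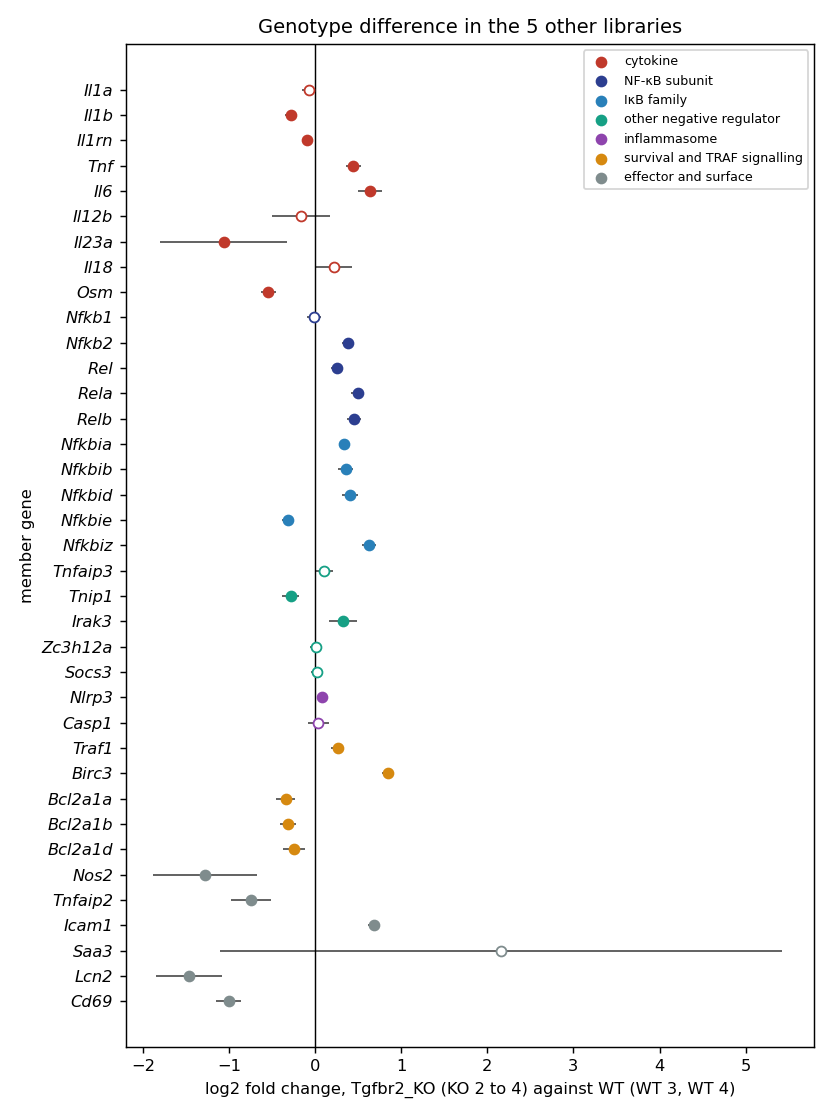
Log2 fold change of KO 2 to 4 against WT 3 and WT 4 for each of the 37 genes (points, coloured by role, bars are 95% intervals), filled where the edgeR adjusted p was under 0.05. NF-κB subunits and IκB genes lie to the right of 0 except Nfkb1 and Nfkbie, whereas cytokines lie on both sides.

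Cytokines were thus spread over both directions (2 higher and 4 lower of 9) in the 5 libraries, whereas 8 of the 10 subunit and IκB genes were higher and 1 lower. Of all genes tested there, 19.7% were higher and 18.7% lower, so the share of cytokines that were higher is near that of all genes. The share that were lower is above it, but of those 4 the calls of Il1rn and Il23a were lost in 5 and 4 of 6 alternatives. The difference between these roles was not tested. Summed over the role, cytokines were at 3262 and 3372 CPM in WT 3 and WT 4 and at 2885 to 2978 CPM in KO 2 to 4. The NF-κB subunits were at 1856 and 1831 CPM in WT 3 and WT 4 and at 2168 to 2268 CPM in KO 2 to 4. The IκB family was at 2025 and 2007 CPM in WT 3 and WT 4 and at 2527 to 2663 CPM in KO 2 to 4. The cytokine sum is mostly Il1b and Il1rn. In the lung-rich libraries all 3 sums were lowest in KO 1.

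**Figure D5:**
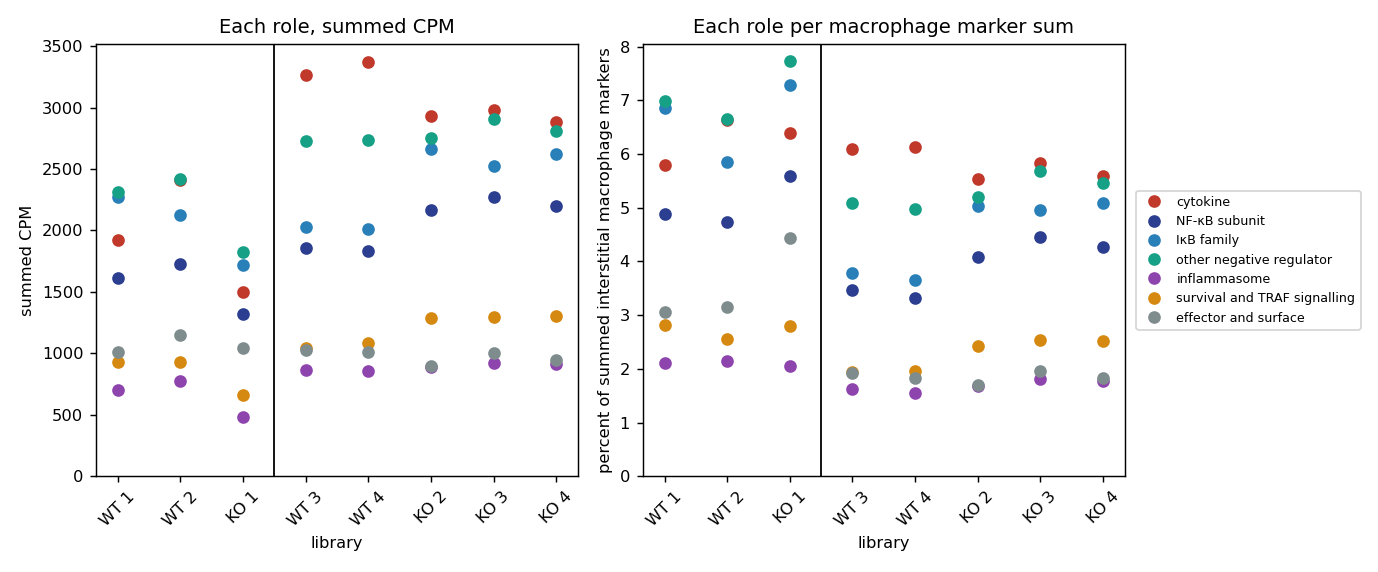
Summed CPM of each role in each library (left) and the same as a percent of the summed interstitial macrophage markers of that library (right), with lung-rich libraries left of the line. On the left KO 1 is lowest for 6 of the 7 roles, and on the right it is within or above the range of WT 1 and WT 2 for 6 of the 7.

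As a percent of the macrophage marker sum, NF-κB subunits were at 5.59% in KO 1 against 4.88% and 4.74% in WT 1 and WT 2. They were at 4.09% to 4.45% in KO 2 to 4 against 3.47% and 3.33% in WT 3 and WT 4. This ratio was thus higher in Tgfbr2_KO in both sets. Among WT libraries it was also higher in the lung-rich ones. Epithelial and endothelial markers were highest in KO 1, and their part in the ratio was not tested. A higher ratio was not particular to the subunits. All members together were at 36.3% in KO 1 against 32.5% and 31.7% in WT 1 and WT 2. They were at 25.6% to 27.2% in KO 2 to 4 against 23.9% and 23.4% in WT 3 and WT 4. The IκB family was at 7.29% in KO 1 against 6.86% and 5.85% in WT 1 and WT 2, and at 4.95% to 5.09% in KO 2 to 4 against 3.78% and 3.65% in WT 3 and WT 4. Cytokines were at 6.38% in KO 1, between WT 1 (5.799%) and WT 2 (6.63%), and at 5.53% to 5.84% in KO 2 to 4 against 6.09% and 6.13% in WT 3 and WT 4. This scale was added after the data were seen, and its marker list includes Mrc1, Folr2 and Lyve1, which differ between CD206-positive and CD206-negative macrophages. Its most abundant markers were Cd74 and Apoe. Apoe was lower in KO 2 to 4 (5232 to 6137 CPM) than in WT 3 and WT 4 (9183 and 9476 CPM). These ratios were not tested.

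Of the other negative regulators, Tnip1 was lower and Irak3 higher in Tgfbr2_KO in the 5 libraries, and Tnfaip3, Zc3h12a and Socs3 did not pass. Tnip1 encodes ABIN-1, a ubiquitin-binding partner of A20. It was at 78.2, 85.1, 90.9 and 87.7 CPM (WT 1 to 4) and 59.6, 69.4, 77.0 and 73.0 CPM (KO 1 to 4), lower in every KO library than in every WT library. The log2 fold change was -0.29 (SE 0.092 and edgeR adjusted p = 0.281) over all 8 libraries, -0.35 (SE 0.058 and edgeR adjusted p = 0.00684) with the set term and -0.29 (SE 0.049 and edgeR adjusted p = 9.75e-05) in the 5. Tnfaip3, the gene of A20, was at 1161, 1239, 1322 and 1321 CPM (WT 1 to 4) and 760.0, 1329, 1500.2 and 1413 CPM (KO 1 to 4) (log2 difference 0.10, SE 0.045 and edgeR adjusted p = 0.117 in the 5 libraries). Outside KO 1 its libraries lay within 1161 to 1500.2 CPM. Irak3, a kinase-like brake on Toll-like receptor signalling, was at 22.2, 23.4, 25.8 and 29.0 CPM (WT 1 to 4) and 24.5, 36.0, 31.9 and 35.4 CPM (KO 1 to 4) (log2 difference 0.32, SE 0.075 and edgeR adjusted p = 0.00189 in the 5 libraries). Socs3, which blocks IL-6 signalling, lay between 702 and 901 CPM with 0.017 (SE 0.029 and edgeR adjusted p = 0.694), and Zc3h12a, an RNase that degrades cytokine transcripts, between 223 and 439 CPM with 0.0063 (SE 0.031 and edgeR adjusted p = 0.898).

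Of the inflammasome genes, Nlrp3 was higher in Tgfbr2_KO in the 5 libraries by a small margin, a call lost in 5 of 6 alternatives (without KO 3, KO 4, WT 3 or WT 4, and with WT 3 and WT 4 summed), and Casp1 did not pass. Nlrp3, the sensor, was at 669, 750.1, 823 and 810.3 CPM (WT 1 to 4) and 453, 843, 879.9 and 865 CPM (KO 1 to 4), with a log2 fold change of 0.081 (SE 0.029 and edgeR adjusted p = 0.033) in the 5 libraries and -0.71 in the lung-rich ones. Casp1, the protease that matures IL-1β and IL-18, lay between 28.0 and 47.3 CPM (log2 difference 0.036, SE 0.058 and edgeR adjusted p = 0.666 in the 5 libraries).

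Within survival and TRAF signalling, Birc3 and Traf1 were higher in Tgfbr2_KO in the 5 libraries and all 3 Bcl2a1 genes were lower. Birc3 encodes cIAP2, a ubiquitin ligase at the TNF receptor and an NF-κB target. It was at 391, 368, 382 and 386 CPM (WT 1 to 4) and 311, 704, 669.7 and 689 CPM (KO 1 to 4). The 4 WT libraries lay close together whatever their set, KO 2 to 4 were far above them, and KO 1 was below them. Its log2 fold change was 0.84 (SE 0.031 and edgeR adjusted p = 4.61e-14) in the 5 libraries and -0.35 in the lung-rich ones, a difference of -1.13 (SE 0.073 and edgeR adjusted p = 6.91e-06). Over all 8 libraries it did not pass (log2 difference 0.64, SE 0.25 and edgeR adjusted p = 0.417), and without KO 1 it did. Traf1, an adaptor that binds cIAP2, was at 139, 143, 146 and 154 CPM (WT 1 to 4) and 112, 183, 178 and 177 CPM (KO 1 to 4) (log2 difference 0.26, SE 0.037 and edgeR adjusted p = 1.3e-05 in the 5 libraries).

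Bcl2a1a, Bcl2a1b and Bcl2a1d encode A1, an anti-apoptotic BCL2 relative, in near-identical copies on chromosome 9. Of the 31-letter words in the transcripts, 78.3%, 72.7% and 89.1% also occurred in another of the 3, so the division of reads among them is uncertain. Bcl2a1b was at 232, 239.7, 297 and 316 CPM (WT 1 to 4) and 136, 233, 257 and 249 CPM (KO 1 to 4). It was lower in each KO library than in both WT libraries of its own set. On the log2 scale the difference was -0.48 (SE 0.10 and edgeR adjusted p = 0.0127) with the set term and -0.32 (SE 0.043 and edgeR adjusted p = 2.8e-05) in the 5 libraries. With the set term Bcl2a1a had -0.50 (SE 0.10 and edgeR adjusted p = 0.0125) and Bcl2a1d had -0.45 (SE 0.12 and edgeR adjusted p = 0.0351).

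Among effector and surface genes, Icam1 was higher and Cd69, Tnfaip2, Lcn2 and Nos2 were lower in Tgfbr2_KO in the 5 libraries, while Saa3 did not pass. Icam1, an adhesion molecule that endothelium also expresses, was at 698, 649, 339.7 and 326 CPM (WT 1 to 4) and 764, 525, 534 and 535 CPM (KO 1 to 4). It was high in all 3 lung-rich libraries, where the endothelial markers were high too, and the part of these in its level was not tested. Within the 5 libraries the log2 fold change was 0.68 (SE 0.031 and edgeR adjusted p = 1.51e-12), while the endothelial markers were lower in KO 2 to 4 (310.2 to 338 CPM) than in WT 3 and WT 4 (378 and 376 CPM). With the set term it was 0.50 (SE 0.10 and edgeR adjusted p = 0.0121).

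Cd69, an early activation marker that holds leukocytes in tissue, was at 20.7, 24.5, 39.5 and 41.6 CPM (WT 1 to 4) and 13.1, 19.2, 20.9 and 20.7 CPM (KO 1 to 4). It was lower in each KO library than in both WT libraries of its own set, and KO 3 (20.9 CPM) just exceeded WT 1 (20.7 CPM). As a log2 fold change it was -1.005 (SE 0.069 and edgeR adjusted p = 6.92e-10) in the 5 libraries, -0.93 (SE 0.078 and edgeR adjusted p = 4.30e-04) with the set term, -0.85 in the lung-rich ones and -0.77 (SE 0.27 and edgeR adjusted p = 0.346) over all 8. The 10 T and NK cell markers, of which 4 passed the filter on low counts, summed to 11.6 to 12.6 CPM in the 5 other libraries, and the genotypes overlapped. Markers of other leukocytes did differ there, as given below. The part of any of these cells in the level of Cd69 was not tested. Tnfaip2, a TNF-induced gene, was at 271, 449, 635 and 632 CPM (WT 1 to 4) and 223, 347, 416 and 370.4 CPM (KO 1 to 4). Its log2 fold change was -0.74 (SE 0.086 and edgeR adjusted p = 0.00366) in the 5 libraries and -0.73 (SE 0.15 and edgeR adjusted p = 0.0159) with the set term.

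Lcn2 encodes lipocalin 2, an iron-scavenging protein that neutrophils and lung epithelium also make. It was at 17.98, 21.5, 7.13 and 5.57 CPM (WT 1 to 4) and 37.3, 2.33, 2.24 and 2.20 CPM (KO 1 to 4), highest in KO 1 and lowest in KO 2 to 4. Nos2, the inducible nitric oxide synthase of activated macrophages, was scarce, at 2.90, 3.78, 2.82 and 2.53 CPM (WT 1 to 4) and 5.82, 1.29, 1.22 and 0.715 CPM (KO 1 to 4), in the same order. In the 5 libraries the log2 fold change was -1.47 (SE 0.18 and edgeR adjusted p = 2.27e-06) for Lcn2 and -1.28 (SE 0.29 and edgeR adjusted p = 0.00141) for Nos2. The difference between the sets was 2.38 (SE 0.22 and edgeR adjusted p = 6.38e-05) for Lcn2 and 2.07 (SE 0.41 and edgeR adjusted p = 0.00556) for Nos2. Epithelial markers were highest in KO 1 and, among the 5, lower in KO 2 to 4 (171 to 227 CPM) than in WT 3 and WT 4 (265 CPM in each). Their part in both genes was not tested. Saa3, an acute-phase protein of macrophages and stroma, was at 0.118, 0.527, 3.33 and 3.54 CPM (WT 1 to 4) and 0.562, 4.12, 27.0 and 15.8 CPM (KO 1 to 4). WT 1 lay under the 3-count floor, and KO 2 to 4 differed widely among themselves (log2 difference 2.64, SE 1.32 and edgeR adjusted p = 0.59 over all 8 libraries).

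Markers of other cells also differed within the 5 libraries. The 10 alveolar macrophage markers summed to 553 and 560.3 CPM in WT 3 and WT 4 and to 171 to 195 CPM in KO 2 to 4. Most of that gap was Chil3, at 348 and 347 CPM against 15.8 to 17.6 CPM. The 10 neutrophil markers summed to 215 and 221 CPM against 146 to 159 CPM, and the 10 classical monocyte markers to 3406 and 3396 CPM against 3549 to 4228 CPM. The 10 dendritic cell markers summed to 126 and 128 CPM against 180.1 to 185 CPM, and the 10 B cell markers to 309 and 313 CPM against 385 to 409 CPM. The rise of the B cell sum lay in Ighm, at 236 and 238 CPM against 340 to 367 CPM. Cd22 of that list went the other way, at 56.0 and 54.6 CPM against 14.0 to 16.5 CPM. Chil3 is also in the monocyte list, where F13a1 was at 214 and 205 CPM in WT 3 and WT 4 and at 1343 to 1404 CPM in KO 2 to 4. The rise of the monocyte sum was smaller than that of F13a1. Without F13a1 the list summed lower in each of KO 2 to 4 than in WT 3 and WT 4, with or without Chil3. Fn1 of that list overlapped, at 1737 and 1717 CPM against 1205 to 1929 CPM. No marker of any list was at 0 in every library. The 10 mast cell and basophil markers summed to 37.2 and 37.5 CPM against 24.3 to 26.3 CPM, and the 12 endothelial markers to 378 and 376 CPM against 310.2 to 338 CPM. The sums of these lists and of the epithelial one moved with genotype beside the 28 called genes, and their part in the results was not tested.

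Per kilobase of merged exon, levels followed a steep order. Over all libraries Il1b (735) was followed by Nfkbia (408), Bcl2a1b (299.8), Socs3 (284), Nfkbiz (191), Nlrp3 (188) and Tnfaip3 (174), all in CPM per kilobase. The lowest were Il23a (0.449), Nos2 (0.597), Saa3 (2.64) and Il12b (2.67). Saa3 was at 0.722 in WT and 4.56 in Tgfbr2_KO, where its mean lay above those of Il12b (2.73), Cd69 (2.84) and Lcn2 (4.20). Single libraries weigh on these means. Saa3 was at 0.562 CPM in KO 1 and 27.0 CPM in KO 3. Lcn2 was at 37.3 CPM in KO 1 and 2.20 to 2.33 CPM in KO 2 to 4. Among the subunits Rel (132) was above Rela (64.0), Nfkb2 (62.4), Relb (30.9) and Nfkb1 (23.3). The neighbours Rela and Nfkb2 differed by less than the spread between libraries. Merged exon length overstates the transcript of genes with long alternative ends such as Nfkb1.

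The wider pathway was read from 4 lists of non-members. Over all 8 libraries 0 of their 56 tested genes passed (edgeR). DESeq2 called Ripk1 (DESeq2 adjusted p = 0.00899) and Casp4 (DESeq2 adjusted p = 0.019) higher and Il18rap (DESeq2 adjusted p = 0.0214) lower. Of all genes tested, DESeq2 called 2.72% higher and 1.41% lower. In the 5 other libraries, where 19.7% of all genes were higher and 18.7% lower, of 12 tested cytokine receptor genes 2 were higher and 4 lower, of 19 adaptors and kinases 6 were higher and 5 lower, of 16 other restraints 7 were higher and 5 lower, and of 9 other inflammasome genes 3 were higher and 3 lower. The median log2 fold changes there were -0.11, -0.036, 0.073 and 5.87e-04. Ripk1, the kinase beside cIAP2 at the TNF receptor, was at 108, 110.0, 107 and 106 CPM (WT 1 to 4) and 117, 165, 156 and 165 CPM (KO 1 to 4). Its log2 difference was 0.61 (SE 0.039 and edgeR adjusted p = 2.64e-10) in the 5 libraries and 0.43 (SE 0.094 and edgeR adjusted p = 0.0177) with the set term. On the same scale with the set term, Myd88, the adaptor of Toll-like and IL-1 receptors, had 0.24 (SE 0.049 and edgeR adjusted p = 0.0152), and Tab3, an adaptor of the kinase TAK1, -0.18 (SE 0.06 and edgeR adjusted p = 0.0755). Tnfrsf1a, the main TNF receptor, had 0.24 (SE 0.059 and edgeR adjusted p = 0.0275) and the IL-18 receptor chain Il18rap -0.46 (SE 0.13 and edgeR adjusted p = 0.0411), while Il12rb1, the receptor chain shared by IL-12 and IL-23, did not pass with the set term (log2 difference -1.11, SE 0.46 and edgeR adjusted p = 0.139). In the 5 libraries Il12rb1 was lower, at -1.72 (SE 0.29 and edgeR adjusted p = 9.08e-05).

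Bcl3, an atypical IκB protein, was at 81.7, 94.9, 82.2 and 78.6 CPM (WT 1 to 4) and 83.3, 144, 145 and 140.2 CPM (KO 1 to 4), with a log2 fold change of 0.84 (SE 0.041 and edgeR adjusted p = 3.77e-12) in the 5 libraries. Zfp36, whose product destabilises cytokine transcripts, was at 2231, 2232, 2145 and 2057 CPM (WT 1 to 4) and 2179, 3154, 3155 and 3172 CPM (KO 1 to 4) (log2 difference 0.59, SE 0.027 and edgeR adjusted p = 1.08e-12 in the 5 libraries). N4bp1, a cytokine restraint that caspases inactivate, had -0.64 (SE 0.11 and edgeR adjusted p = 0.00853) with the set term. Of the inflammasome genes, Casp4, the cytosolic sensor of lipopolysaccharide, was at 94.3, 84.8, 94.1 and 93.3 CPM (WT 1 to 4) and 94.5, 177, 181 and 175 CPM (KO 1 to 4) (log2 difference 0.93, SE 0.038 and edgeR adjusted p = 2.55e-13 in the 5 libraries). In Ripk1, Bcl3, Zfp36 and Casp4 the WT libraries of both sets and KO 1 lay together and KO 2 to 4 stood above them, as in Birc3, except that KO 1 was lowest of all in Birc3. P2rx7, the ATP-gated channel upstream of NLRP3, had 0.31 (SE 0.039 and edgeR adjusted p = 2.84e-06) and Txnip, a thioredoxin inhibitor, 0.46 (SE 0.034 and edgeR adjusted p = 1.4e-09) in the 5 libraries.

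The calls in the 5 libraries were recomputed without each library in turn and with WT 3 and WT 4 summed, an alternative chosen after seeing the data. Where 1 WT library is left, its spread is taken from the KO libraries. Between 24 and 27 of the 28 calls were kept, with 13 to 17 genes higher and 10 to 12 lower (edgeR), against 13% to 20.5% and 12% to 19.8% of all genes tested. Of the 28, 23 were kept in all 6 of these alternatives. Il1rn and Nlrp3 were lost in 5 of the 6 and Il23a in 4. Irak3 was lost without WT 3 and Bcl2a1d without WT 4. Without KO 1, the pooled comparison of the other 7 libraries called 7 genes higher (Birc3, Il6, Nfkb2, Nfkbib, Rela, Relb and Traf1) and 2 lower (Lcn2 and Nos2), against 4.85% and 1.89% of all genes tested. With WT 3 and WT 4 summed and the set as a term, 0 were higher and 5 lower (Bcl2a1a, Bcl2a1b, Cd69, Osm and Tnip1), against 2.36% and 3.64% of all genes tested in that fit. Rela, Icam1, Il23a, Nfkbie, Tnfaip2 and Bcl2a1d did not pass in it.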

How the data were processed

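RNA from sorted lung interstitial macrophages was sequenced in 4 WT and 4 Tgfbr2_KO libraries made with a stranded poly(A) kit, per the labels' protocols. The authors deposited estimated counts per gene from salmon, merged into 1 table, per the file headers and name. GRCm38 and DESeq2 1.40.1 are named in the submitters' processing notes. Salmon's version, its annotation and the strand setting: not given in the sources used here. Between 81.8% and 84.8% of values per library, zeros included, were exactly whole (no tolerance), and all were rounded to counts. Genes were kept by filterByExpr (minimum count 10, total 15), scaled by TMM and tested with edgeR 4.0.16 quasi-likelihood (R 4.3.3, limma 3.58.1), with genotype as the only term and Benjamini-Hochberg adjustment over all tested genes at 0.05. DESeq2 1.42.0, other scalings, no filter, the library set as a term, the 5 other libraries, a block by replicate number, WT 3 and WT 4 summed and each library left out were alternatives. The scripts were tested on simulated data.

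All 37 members are named. Of each pathway list, genes passing over all 8 libraries plus the 3 with the smallest p are named, Tgfbr2 and Lyz2 check the labels, and of each marker list the 2 most abundant genes were tabulated. The members and all lists were chosen with earlier results of these data known.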

Additional observations from a re-analysis of the deposited data

Results flagged for a closer look

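In groups of 4 libraries, a library was singled out where its gap to the nearest other, as a share of the group's range passed Dixon's 95% critical value. Of 74 groups tested (37 genes in each genotype), 20 passed, and chance flags about 1 in 20. In 19 the library was KO 1, which was below KO 2 to 4 for 42.4% of all genes tested. The share of all genes that this rule flags was not computed. KO 1 was the low one for Il1a (0.963), Il1b (0.839), Il1rn (0.892), Osm (0.842), Nfkb2 (0.951) and Rel (0.893). It was also low for Rela (0.873), Relb (0.933), Nfkbia (0.830), Nfkbib (0.872), Nfkbie (0.8996) and Zc3h12a (0.899). It was low as well for Nlrp3 (0.913), Casp1 (0.855), Traf1 (0.919) and Birc3 (0.913). KO 1 was the high one for Nos2 (0.887), Icam1 (0.958) and Lcn2 (0.996). Il6 in WT 1 was low among the WT libraries, with a share of 0.925. These genes share their libraries, so the groups are not independent.

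For 21 genes an interaction term between genotype and the 2 sets of libraries passed (edgeR, adjusted p under 0.05). The difference, lung-rich minus the other 5 on the log2 scale, is given in brackets. It was below 0 for Il1rn (-0.57), Tnf (-1.34), Nfkb2 (-0.70), Rel (-0.71) and Rela (-0.49). Further values below 0 were those of Relb (-0.80), Nfkbia (-0.71), Nfkbib (-0.67), Nfkbid (-0.93) and Nfkbiz (-0.91). Values below 0 were also found for Tnfaip3 (-0.76), Zc3h12a (-0.59), Nlrp3 (-0.73), Traf1 (-0.59) and Birc3 (-1.13). The others below 0 were Bcl2a1a (-0.47), Bcl2a1b (-0.48), Bcl2a1d (-0.58) and Icam1 (-0.49). It was above 0 for Nos2 (2.07) and Lcn2 (2.38). Each of these differences rests on KO 1, the single Tgfbr2_KO library of the lung-rich set, so set and library cannot be told apart.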

How the results depend on the processing

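Over all 8 libraries 25 genes were higher and 13 lower, 0 and 0 of them members. The counts were 347 and 180 with DESeq2 (members 1 and 1), 53 and 28 with library totals only, 1095 and 1006 with the set as a term (members 2 and 9), 318 and 491 with WT 3 and WT 4 summed and the set as a term (members 0 and 5), and 2493 and 2363 in the 5 other libraries (members 15 and 13). Leaving out 1 library gave 0 to 619 higher and 0 to 241 lower, with 0 to 7 and 0 to 2 members. The highest of each came without KO 1, and 0 genes passed without any other library. In the 5 libraries, leaving out 1, an alternative chosen after seeing the data, gave 1674 to 2584 genes higher and 1543 to 2494 lower, with 13 to 17 and 10 to 12 members. The difference between the sets was called for 1393 to 3264 genes and 20 to 27 members without 1 library, and for 1506 genes with WT 3 and WT 4 summed. The cause of these shifts was not tested.

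With replicate number as a block, 0 genes were higher and 0 lower. Deviations of same-numbered libraries correlated at 0.87, -0.79, 0.69 and 0.75. Over all pairs of a WT and a KO library, the correlation was above 0 within a library set and below 0 across the sets. The sign thus followed the library set, so this check cannot tell whether the numbers pair the samples.

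In the 5 other libraries, the log2 fold change changed sign to -0.0746 for Il1a, -0.0904 for Il1rn, 0.44 for Tnf, -0.16 for Il12b, -0.0189 for Nfkb1, 0.10 for Tnfaip3, 0.00629 for Zc3h12a, 0.0811 for Nlrp3 and 0.0134 for Tgfbr2. With WT 3 and WT 4 summed and the set as a term, the log2 fold change changed sign to -0.16 for Il1a, -0.40 for Il1rn, -0.0375 for Il12b, -0.0714 for Il18, -0.16 for Nfkb1, -0.12 for Rel, -0.0326 for Nfkbia, -0.0731 for Nfkbid, -0.0608 for Casp1 and -0.0545 for Traf1. With the set as a term, the log2 fold change changed sign to -0.12 for Il1a, -0.29 for Il1rn, -0.0405 for Il12b, -0.10 for Nfkb1 and -0.00951 for Casp1. With library totals only, the log2 fold change changed sign to -0.00382 for Il1rn and -0.0221 for Nfkb1. With the replicate block, the log2 fold change changed sign to -0.0241 for Il1rn and -0.00281 for Nfkb1. Without the filter, the log2 fold change changed sign to 0.000555 for Nlrp3. Without 1 library, the log2 fold change over the remaining 7 was -0.0889 to 0.22 for Il1a, -0.11 to 0.27 for Il1rn, -0.13 to 0.11 for Tnf, -0.0945 to 0.18 for Il12b, -0.0777 to 0.12 for Nfkb1, -0.32 to 0.0482 for Nfkbie, -0.12 to 0.16 for Tnfaip3, -0.11 to 0.17 for Zc3h12a, -0.0912 to 0.18 for Nlrp3, -2.53 to 0.12 for Lcn2, -0.00168 to 0.44 for Txnip and -0.0925 to 0.0543 for Tgfbr2. The highest value came without KO 1 for all of these but Il12b (without WT 4), Lcn2 (without WT 2) and Txnip (without WT 1), and for Lcn2 and Txnip the lowest did. None of these genes passed over all 8 libraries, and the cause was not tested. The looser NF-κB consensus was found in 11 of 30 members (36.7%) and 12.6% of all genes. Of the 37, Saa3 in WT 1 alone lay under the level of 3 counts (0.177 CPM there).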
